A study of Mus musculus with 35 samples.

Results

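Somatic cells carry out glycolysis, respiration and translation with housekeeping enzymes, carriers and ribosomal proteins that nearly every cell makes. Male germ cells replace several of these by the products of a second gene, a testis paralog, and many such second genes are retrocopies or duplicates whose expression is normally restricted to spermatogenic cells. Several testis genes and cancer/testis antigen genes are known to be silenced in somatic cells with methylation of CpG dinucleotides at their promoters, and DNMT1 is the enzyme that copies CpG methylation to the new strand after DNA replication. Expression of 7 such genes upon *Dnmt1* deletion in mouse embryonic stem cells (ESCs) is described here. They were taken by name, 7 rows of the 26127 in the expression table: *Rpl39l*, *Cox7b2*, *Slc25a31*, *Ldhc*, *Pgk2*, *Gapdhs* and *Fmr1nb*. The first 6 are testis paralogs of *Rpl39*, *Cox7b*, *Slc25a4*, *Ldha*, *Pgk1* and *Gapdh*. *Fmr1nb*, the neighbour of *Fmr1*, is a cancer/testis antigen gene and no paralog of a housekeeping gene, so the common label holds for 6 of the 7. The 7 were chosen with their differences between KO and WT known, so those differences are given as a description with no p-value.

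ESCs were used whose *Dnmt1* alleles are flanked by loxP sites, and their total RNA was sequenced after removal of ribosomal RNA. Addition of 4OHT (tamoxifen) activated Cre and deleted *Dnmt1* (KO), and the libraries labelled Wildtype or control (WT) served as the comparison at days 0, 1, 3, 6, 9, 11, 17 and 25; whether they received 4OHT is not given in the sources used here. The labels give the background strain E14, where the methods name C57BL/6 for the *Dnmt1* loxP/loxP line, so the strain is uncertain. Cells grew, again per the methods, in serum and LIF, with or without feeders. Each genotype had 2 libraries a day and 3 at day 1, called biological replicates by the submitters, and p-values measure only the spread between these libraries. A 35th library is labelled as ESCs in which *Dicer* was disrupted by CRISPR, and it was not assigned a day. The deposited values are RPKM: the reads on a gene divided by its exon length in kilobases and by the size of the library in mega-reads. Between 5.10 and 17.5 mega-reads a library fell in gene exons. Such reads made up 20.2 to 22.0% of the library in 20 libraries (those of days 0 to 9 apart from replicate 3 of day 1) and 44.1 to 48.8% in the other 15 (that replicate, the later days and Dicer KO). The split applies to both genotypes of a day, so KO was compared with WT within it, and levels before and after it are on different footings. Fewer cells expressing a gene and less RNA per cell cannot be told apart in such bulk samples.

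*Dnmt1* itself was measured first as a check of the labels. It had 14.1 to 34.8 RPKM in the 15 WT libraries of all days but 6, and 2.58 to 8.13 RPKM in the 13 KO libraries from day 1 on without day 6. The libraries labelled KO at day 0 had 18.5 and 18.7 RPKM, within the WT range. At day 6 the genotypes were the other way round, with 3.22 and 3.405 RPKM in the libraries labelled WT and 20.2 and 20.4 RPKM in those labelled KO. Day 6 is therefore given as labelled and was left out of the averages over days, which are also given with it. Defining markers of late spermatogenic cells were near 0 throughout: 10 spermatid genes together reached at most 0.2999 RPKM in any library, and *Prm2* and *Akap4*, genes of the sperm chromatin and the sperm tail, had no read in any of 35. The summed level of 8 ESC markers lay between 630 and 1856 RPKM.

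Promoter sequences are shown first, because DNMT1 acts on CpG dinucleotides and the 7 genes differ in how many of them surround the start site. Each line below holds 300 bases of the RefSeq promoter table, 250 before and 50 after the start, 5′ to 3′ on the gene's strand, with every CG dinucleotide in capitals, and each matched the NCBIM37 genome at full length and identity. For *Ldhc* and *Gapdhs*, which have 2 starts in the table, the one with more CG is shown.
Rpl39l: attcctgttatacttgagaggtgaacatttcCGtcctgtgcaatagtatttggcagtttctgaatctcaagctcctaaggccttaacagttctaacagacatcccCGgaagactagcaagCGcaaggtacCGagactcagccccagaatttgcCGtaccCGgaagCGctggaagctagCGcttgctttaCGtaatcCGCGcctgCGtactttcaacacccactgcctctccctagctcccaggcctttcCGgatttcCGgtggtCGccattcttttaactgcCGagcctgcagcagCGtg
Cox7b2: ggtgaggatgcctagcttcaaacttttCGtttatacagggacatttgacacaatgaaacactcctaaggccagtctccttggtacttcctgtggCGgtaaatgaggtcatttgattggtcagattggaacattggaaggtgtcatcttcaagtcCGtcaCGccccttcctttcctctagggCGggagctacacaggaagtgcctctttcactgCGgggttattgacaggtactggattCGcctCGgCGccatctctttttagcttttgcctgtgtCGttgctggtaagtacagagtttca
Slc25a31: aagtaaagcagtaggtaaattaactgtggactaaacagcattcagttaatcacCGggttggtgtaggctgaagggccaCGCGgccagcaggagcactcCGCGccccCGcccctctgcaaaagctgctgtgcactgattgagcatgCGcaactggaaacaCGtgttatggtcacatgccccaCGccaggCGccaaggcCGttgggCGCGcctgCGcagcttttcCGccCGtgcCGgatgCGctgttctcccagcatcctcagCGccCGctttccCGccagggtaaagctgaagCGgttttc
Ldhc: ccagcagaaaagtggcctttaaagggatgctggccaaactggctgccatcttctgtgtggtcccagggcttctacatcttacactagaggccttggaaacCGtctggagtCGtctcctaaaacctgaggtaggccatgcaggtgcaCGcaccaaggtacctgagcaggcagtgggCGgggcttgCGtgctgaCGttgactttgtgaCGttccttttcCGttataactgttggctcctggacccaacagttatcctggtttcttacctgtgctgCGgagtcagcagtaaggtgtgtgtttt
Pgk2: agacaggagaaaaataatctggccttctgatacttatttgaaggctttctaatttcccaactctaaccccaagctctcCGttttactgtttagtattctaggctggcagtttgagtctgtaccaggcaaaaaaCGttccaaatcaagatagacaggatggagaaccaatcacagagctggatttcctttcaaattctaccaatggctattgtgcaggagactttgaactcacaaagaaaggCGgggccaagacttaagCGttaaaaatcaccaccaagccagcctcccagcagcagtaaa
Gapdhs: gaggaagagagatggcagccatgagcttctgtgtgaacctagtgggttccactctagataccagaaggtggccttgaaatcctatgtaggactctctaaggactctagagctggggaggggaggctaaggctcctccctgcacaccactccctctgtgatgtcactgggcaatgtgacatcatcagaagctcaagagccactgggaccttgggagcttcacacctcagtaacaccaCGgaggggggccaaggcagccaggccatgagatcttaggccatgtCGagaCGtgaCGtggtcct
Fmr1nb: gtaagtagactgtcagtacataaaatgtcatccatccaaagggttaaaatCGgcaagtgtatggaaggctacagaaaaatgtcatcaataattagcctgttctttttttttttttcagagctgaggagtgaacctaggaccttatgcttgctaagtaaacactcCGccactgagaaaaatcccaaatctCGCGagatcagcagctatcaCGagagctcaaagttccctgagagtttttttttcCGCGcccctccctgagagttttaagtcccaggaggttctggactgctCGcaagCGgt
In NCBIM37 coordinates these are chr16:10170071-10170370 (plus strand) for *Rpl39l*, chr5:71939395-71939694 (minus) for *Cox7b2*, chr3:40512543-40512842 (plus) for *Slc25a31*, chr7:54116383-54116682 (plus) for *Ldhc*, chr17:40345505-40345804 (minus) for *Pgk2*, chr7:31528651-31528950 (minus) for *Gapdhs* and chrX:66014764-66015063 (plus) for *Fmr1nb*.

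The windows held 22 CG in *Slc25a31*, 17 in *Rpl39l*, 10 in *Cox7b2*, 9 in *Ldhc*, 9 in *Fmr1nb*, 4 in *Pgk2* and 4 in *Gapdhs*. The median of 32851 promoters was 7, with quartiles at 3 and 20, and 23.1% of promoters had at least as many as *Slc25a31*. The 5 genes with KO levels above WT at most days from day 3 on, described next, had 9 or more CG, and the 2 without had 4. This is an order over 7 genes chosen by their response and was not tested. It depends on the start taken: the other start held 3 CG in *Ldhc*, below *Pgk2*, and 1 in *Gapdhs*. The somatic paralogs had 5 in *Cox7b*, 12 in *Gapdh* and 17 in *Rpl39*, and 24 in *Pgk1*, 25 in *Slc25a4* and 30 in *Ldha*, the last 3 above the highest of the 7 genes. For *Ldha* too the start with more CG was taken, and its other start held 13. On either strand, the E-box CACGTG (in 7.15% of all promoters) and the E2F-type sequence GCGGGAA (in 4.60%) each occurred in 1 of the 7 windows, both in *Slc25a31*, and the CRE sequence TGACGTCA (in 1.79%) in none. Methylation was not measured in these files.

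**Figure D1:**
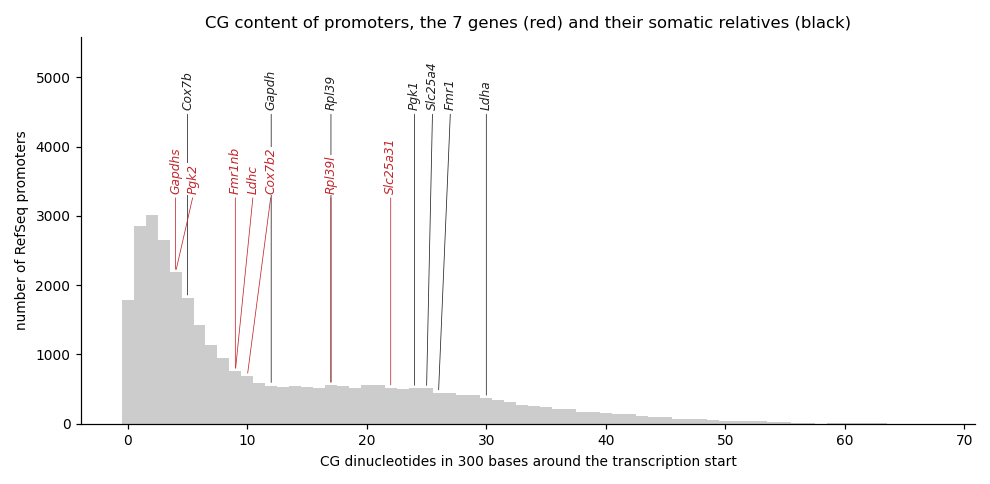
Number of RefSeq promoters (vertical axis) by count of CG dinucleotides in 300 bases around the start (horizontal axis), with the 7 genes named in red and their somatic relatives, including *Fmr1*, in black. *Pgk2* and *Gapdhs* sit at 4 CG, *Ldhc* and *Fmr1nb* at 9, *Cox7b2* at 10, *Rpl39l* at 17 and *Slc25a31* at 22, against a median of 7. The start with more CG stands for *Ldhc*, *Gapdhs*, *Ldha* and *Fmr1*.

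The largest level among the 7 genes was that of *Rpl39l*, the testis paralog of *Rpl39*, a small protein of the large ribosomal subunit that lines the peptide exit tunnel (ENSMUSG00000039209.6, chr16:10170319-10175004, plus strand). In WT it had 1.33 and 1.46 RPKM at day 0, 1.81 and 1.53 at day 3, 1.40 and 1.68 at day 9, 2.37 and 2.09 at day 11, 1.79 and 1.25 at day 17, then 0.441 and 0.399 at day 25. In KO it had 1.24 and 1.34 RPKM at day 0, 8.24 and 8.70 at day 3, 13.7 and 14.4 at day 9, 49.0 and 32.6 at day 11, 49.5 and 47.3 at day 17, then 25.4 and 25.6 at day 25. The genotypes overlapped at day 0 and were apart at each of days 3, 9, 11, 17 and 25, where the lowest KO library was above the highest WT library of any of these days. At day 1 the KO libraries had 1.81, 1.80 and 2.01 RPKM and the WT libraries 0.946, 1.26 and 1.76, a gap smaller than the spread among the WT libraries. The ratio of KO to WT reads, with its exact 95% interval for counting error alone, was 1.52 (1.2 to 1.94) at day 1, 5.0 (4.07 to 6.17) at day 3, 9.54 (7.86 to 11.7) at day 9, 18.5 (15.5 to 22.2) at day 11, 31.9 (25.3 to 40.7) at day 17 and 60.6 (39.0 to 99.5) at day 25. From day 17 to day 25 the KO level was lower, not higher, and the ratio grew as the WT level was lower too.

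*Cox7b2* is the testis paralog of *Cox7b*, a nuclear-encoded subunit of cytochrome c oxidase, the last complex of the respiratory chain (ENSMUSG00000049387.5, chr5:71834063-71939444, minus strand). Its WT libraries had 0.523 and 0.512 RPKM at day 0, 0.269 and 0.350 at day 3, 0.235 and 0.228 at day 9, 1.53 and 1.53 at day 11, 1.74 and 1.73 at day 17, then 0.430 and 0.680 at day 25. Its KO libraries had 0.363 and 0.323 RPKM at day 0, 1.99 and 2.15 at day 3, 4.97 and 4.70 at day 9, 26.3 and 19.5 at day 11, 20.2 and 18.0 at day 17, then 7.13 and 8.07 at day 25. KO was below WT at day 0, overlapped it at day 1 and was above it at each of days 3, 9, 11, 17 and 25. The KO to WT ratio of reads was 20.8 (95% interval 11.7 to 40.9) at day 9, on 9 and 3 WT reads. It was 15.0 (11.5 to 19.9), 11 (8.35 to 14.7) and 13.9 (8.48 to 24.2) at days 11, 17 and 25. The intervals of these 4 days overlapped, so no course after day 9 could be read from the ratio.

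*Fmr1nb* lies on chromosome X downstream of *Fmr1* (ENSMUSG00000062170.6, chrX:66015014-66057742, plus strand) and shares part of its span with *Gm14699* on the minus strand; whether reads were counted by strand is not given in the sources used here. WT libraries had 1.18 and 1.25 RPKM at day 0, 1.56 and 1.56 at day 3, 1.12 and 1.23 at day 9, 1.90 and 1.91 at day 11, 1.62 and 1.25 at day 17, then 0.107 and 0.118 at day 25. KO libraries had 1.05 and 1.11 RPKM at day 0, 3.97 and 3.56 at day 3, 7.43 and 6.996 at day 9, 19.3 and 15.7 at day 11, 16.0 and 17.9 at day 17, then 12.5 and 14.1 at day 25. The 2 genotypes did not overlap at days 3, 9, 11, 17 and 25. The day 25 ratio of 119 (95% interval 54.4 to 325) rests on 3 reads in each WT library against 350 and 404 in KO, while at days 3, 9, 11 and 17 the ratio was 2.44, 6.32, 9.2 and 11.8. The WT mean was lower at day 25 than at day 17 also for *Rpl39l* (0.420 against 1.52 RPKM) and *Cox7b2* (0.555 against 1.74). The same held for the somatic *Rpl39* (103 against 199) and *Cox7b* (66.5 against 128). It was not lower for *Slc25a31* (0.410 against 0.290), and the cause was not tested.

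*Ldhc* encodes the lactate dehydrogenase of sperm (ENSMUSG00000030851.7, chr7:54116573-54133512, plus strand) and follows the somatic *Ldha* (chr7:54096845-54110997) on the same strand. It was low: WT libraries had at most 0.187 RPKM on days other than 6, and KO libraries had 0.256 and 0.279 RPKM at day 3, 0.191 and 0.308 at day 9, 1.73 and 1.13 at day 11, 0.859 and 0.828 at day 17, then 0.532 and 0.537 at day 25. Those KO libraries were all above every WT library of the same set of days, by a small margin at day 9. The ratio of reads was 9.47 (95% interval 5.71 to 16.7) at day 11, on 86 and 54 KO reads, and 15.8 (6.52 to 50.1) at day 17, on 3 and 2 WT reads.

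*Slc25a31* encodes the germ cell ADP/ATP carrier of the mitochondrial inner membrane (ENSMUSG00000069041.6, chr3:40512777-40529515, plus strand). In WT it had 0.115 and 0.0833 RPKM at day 3, 0.0783 and 0.127 at day 9, 0.492 and 0.272 at day 11, 0.395 and 0.186 at day 17, then 0.389 and 0.431 at day 25. In KO it had 0.166 and 0.173 RPKM at day 3, 0.528 and 0.317 at day 9, 0.548 and 0.427 at day 11, 1.57 and 1.75 at day 17, then 3.43 and 3.45 at day 25. Its highest levels were in the KO libraries of day 25, where those of *Rpl39l*, *Cox7b2*, *Fmr1nb* and *Ldhc* were below their day 11 values. At day 3 the ratio of reads was 1.66 (95% interval 0.772 to 3.64), on 10 and 7 KO reads and 9 and 5 WT reads. At day 11 the genotypes overlapped, and the ratio of reads was 1.31 (95% interval 0.852 to 2.02). It was 5.73 (3.82 to 8.88) at day 17 and 8.42 (6.01 to 12.1) at day 25. At day 1, replicate 3 of WT had 0.545 RPKM on 26 reads against 0.0177 RPKM on 1 read in the KO library of that number, and the other 4 libraries lay between.

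*Pgk2* and *Gapdhs*, the sperm forms of 2 glycolytic enzymes, did not share this pattern. *Pgk2* (ENSMUSG00000031233.5, chr17:40343963-40345554, minus strand) is a single-exon retrocopy of the X-linked *Pgk1*. It had no read in 33 of 35 libraries, 1 read in a WT library of day 25 (0.0209 RPKM) and 3 reads in the Dicer KO library (0.0731 RPKM). A count of 0 allows up to 0.0261 to 0.0775 RPKM, depending on the library (3 reads), so a level of that size was not detectable. *Gapdhs* (ENSMUSG00000061099.4, chr7:31514799-31528700, minus strand) had between 0.0949 and 0.401 RPKM in all 35 libraries. KO was below WT at days 1, 9 and 11 and above it at day 25, and the 95% interval of the ratio of reads held 1 at every day, with 0.588 (0.335 to 1.01) at day 11 and 1.73 (0.926 to 3.32) at day 25.

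**Figure D2:**
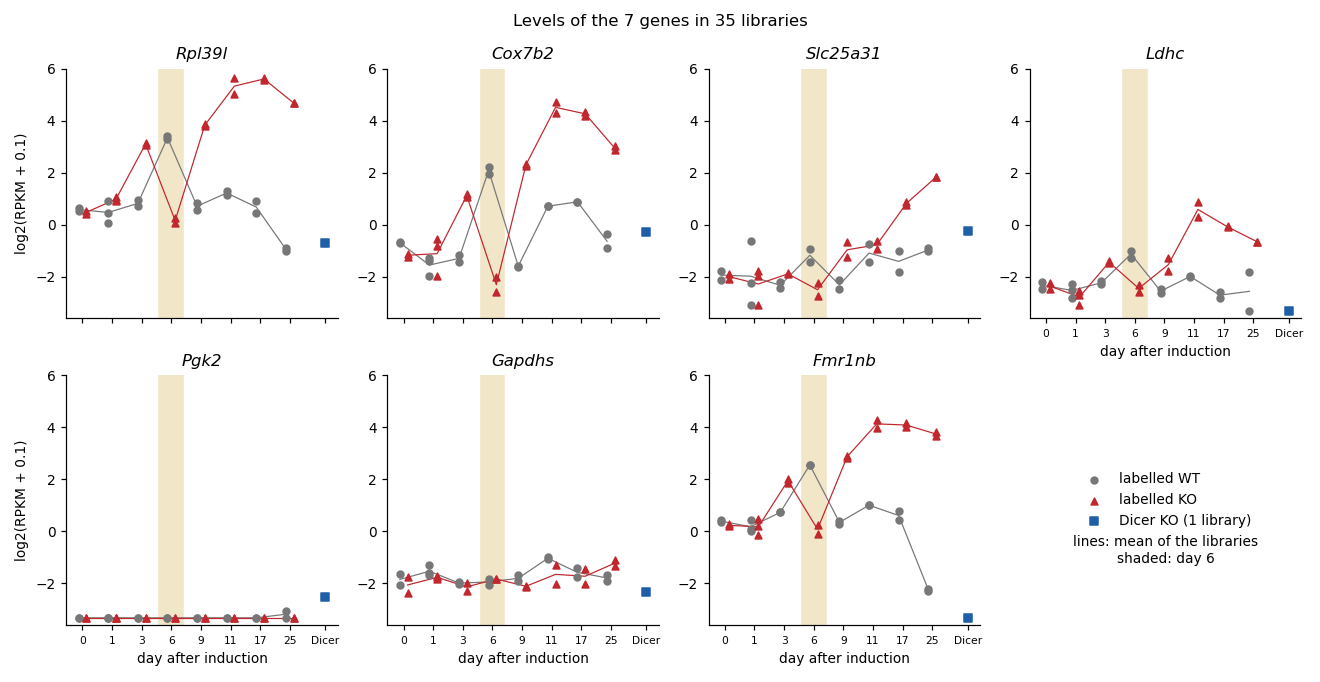
Level of each of the 7 genes, as log2(RPKM + 0.1), against the day after induction, 1 point a library, with lines through the means of the libraries labelled WT (grey circles) and KO (red triangles), the Dicer KO library as a blue square, and day 6 shaded. KO libraries of *Rpl39l*, *Cox7b2* and *Fmr1nb* lie far above WT from day 3 on except at day 6. *Ldhc* follows at lower levels, as does *Slc25a31* apart from day 11, where its genotypes overlap. *Pgk2* and *Gapdhs* stay at the bottom in both genotypes.

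Averaged over days 3, 9, 11, 17 and 25 on the log2(RPKM + 0.1) scale, which understates differences of low genes, KO minus WT was 4.01 (SE 0.0969) for *Rpl39l*, 3.41 (SE 0.141) for *Cox7b2*, 3.26 (SE 0.0831) for *Fmr1nb*, 1.78 (SE 0.154) for *Ldhc* and 1.43 (SE 0.230) for *Slc25a31*. *Gapdhs* differed by -0.13 (SE 0.105). With day 6 included as labelled the first 5 values were 2.81, 2.11, 2.31, 1.27 and 0.97. Across the table, 11615 genes had an RPKM above 1 in at least 2 libraries and were tested with limma, and 5 of the 7 were among them. *Slc25a31* and *Ldhc* passed this filter only through KO libraries, 4 and 2 of them. All 5 were called higher in KO (Benjamini-Hochberg adjusted p below 0.05), where 13.2% of the tested genes were called higher; since this contrast chose the genes, nothing is read from the count. For days 3 and 9, 4 of the 5 were called against 3.8% of tested genes, *Slc25a31* being the exception, and for days 11, 17 and 25 all 5 against 12.1%. These days are parts of the same contrast, so nothing is read from these counts either. All 7 genes counted, KO lay above WT with no overlap in 5 at day 3 (34.9% of tested genes), 5 at day 9 (39.1%), 4 at day 11 (31.9%), 5 at day 17 (42.6%) and 6 at day 25 (49.5%). At day 0, when *Dnmt1* in KO was within the WT range, KO was above WT in none of the 7 (21.5% of tested genes). KO was above WT at day 1 in 1, *Rpl39l* (2.06%), and at day 6 as labelled in none (28.4%).

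The mean difference was larger over days 11, 17 and 25 than over days 3 and 9 for each of the 5. It was 4.88 against 2.70 for *Rpl39l*, 4.19 against 1.87 for *Fmr1nb* and 2.37 against 0.90 for *Ldhc*. For *Slc25a31* it was 1.78 against 0.89, and for *Cox7b2* 3.59 against 3.15. Single days did not all follow this order. *Cox7b2* differed by 3.90 at day 9, above its 3.80, 3.38 and 3.58 at days 11, 17 and 25. *Slc25a31* differed by 1.35 at day 9 and by 0.32 at day 11. These 2 sets of days also differ in the share of reads in genes, and the part of that share was not tested. Part of the step in RPKM between days 9 and 11 went with it: scaled to gene reads in place of all reads, the mean KO level of *Rpl39l* was 66.1 at day 9 and 87.8 at day 11 (reads per kilobase and mega-read of genes), where the RPKM libraries had 13.7 and 14.4, then 49.0 and 32.6. For *Fmr1nb* the scaled means were 33.9 and 37.8, and for *Cox7b2* 22.7 and 49.4. The summed level of 10 fibroblast markers, which feeder cells would bring, moved with genotype at the early days: 6.47 to 7.56 RPKM in WT and 11.4 in both KO libraries at day 3, and 9.16 to 10.8 in WT and 16.4 to 17.9 in KO at day 9. At days 11, 17 and 25 it was 0.603 to 2.67 RPKM in WT and 0.630 to 1.04 in KO. Whether feeder cells had a part in the differences of the 5 genes was not tested.

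**Figure D3:**
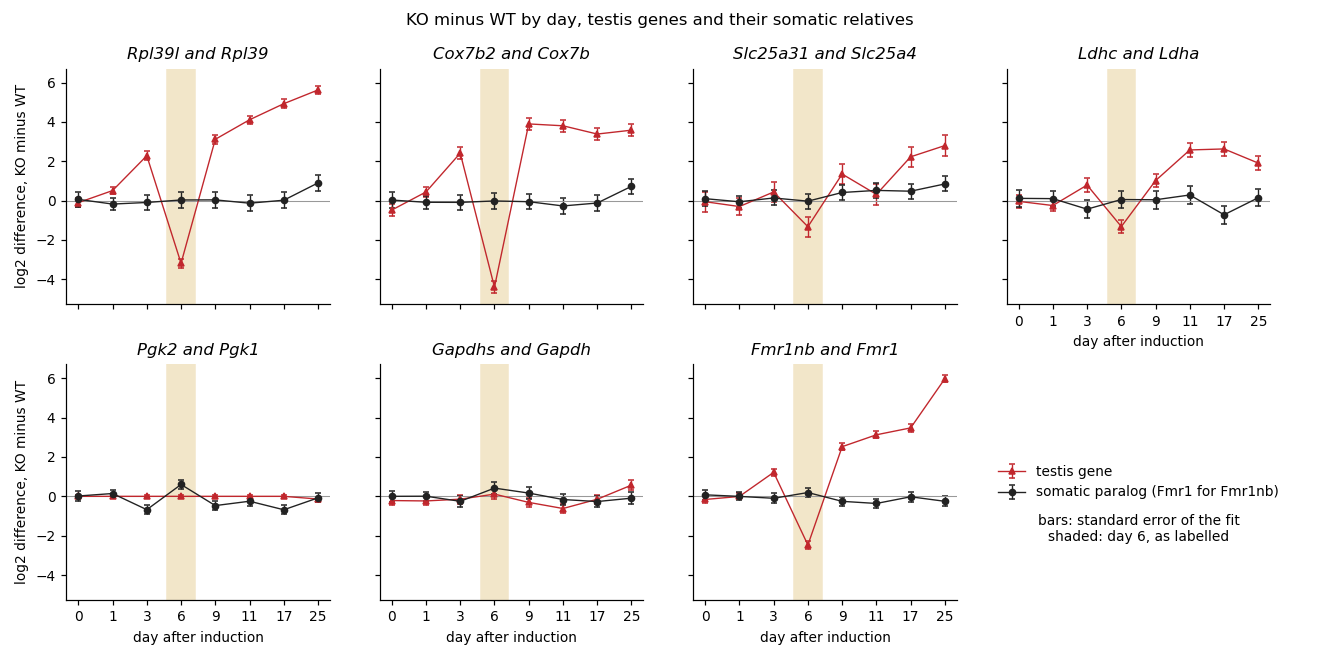
KO minus WT, as the difference of mean log2(RPKM + 0.1) with the standard error of the fit, at each day for the 7 genes (red triangles) and for the somatic paralog, or *Fmr1* for *Fmr1nb* (black circles). *Rpl39l* runs from -0.10 at day 0 to 5.62 at day 25 and *Fmr1nb* from -0.16 to 5.98. *Rpl39* and *Fmr1* stay within 1 of 0, with *Rpl39* at 0.90 at day 25. At the shaded day 6, where the labels disagree with *Dnmt1*, 5 of the 7 genes point down.

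The somatic paralogs, read as a reference, did not pass the test in the upward direction for the mean of the 5 days in the main fit. At day 25 alone, KO was above WT with no overlap in *Rpl39* (means of 191 against 103 RPKM) and *Cox7b* (110 against 66.5). The same held for *Slc25a4* (83.3 against 46.3) and *Ldha* (209 against 189), and for 49.5% of tested genes. At that day *Gapdh* overlapped, and *Pgk1* and *Fmr1* were below WT. Averaged over the 5 days, *Rpl39* differed by 0.15 (SE 0.177, limma with Benjamini-Hochberg adjustment, adjusted p 0.674), *Cox7b* by 0.04 (SE 0.176, adjusted p 0.931; -0.039 after median centring), *Ldha* by -0.13 (SE 0.1997, adjusted p 0.746) and *Gapdh* by -0.12 (SE 0.130, adjusted p 0.628). *Fmr1*, whose product binds mRNA at synapses and is absent in fragile X syndrome, differed by -0.20 (SE 0.110, limma adjusted p 0.254). These calls depend on the setting: *Fmr1* was called lower after median centring (-0.28, limma adjusted p 1.61e-05), with only the groups compared (9.77e-04) and without replicate 3 of day 1 in both genotypes (1.09e-04), in a range over all alternatives of 1.61e-05 to 0.539. *Gapdh* was called lower without that replicate (limma adjusted p 0.0202), in a range of 0.0202 to 0.946. *Pgk1*, phosphoglycerate kinase of glycolysis, fell by 0.43 (SE 0.103, limma adjusted p 0.003896), and the call was lost with day 6 included as labelled. Its KO was below WT with no overlap at 4 of 5 days, and the share of tested genes with such a count was not taken. *Slc25a4*, the carrier of heart and muscle, differed by 0.48 (SE 0.170, limma adjusted p 0.0535), with KO above WT and no overlap at all 5 days, as in 7.98% of tested genes. It passed in the fits that left out any one library of day 1, with limma adjusted p between 0.00368 and 0.0490. It was also called higher after median centring (limma adjusted p 1.36e-04), with only the groups compared (3.58e-07) and without replicate 3 of day 1 in both genotypes (4.47e-10). The range over all alternatives was 4.474e-10 to 0.120.

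Set against its paralog within a library, *Rpl39l* went from 2.32% ± 0.122 (SD, n = 2) of the RPKM of *Rpl39* in WT at day 0 to 29.2% ± 0.857 in KO at day 9, and had 24.4% ± 0.770 in KO at day 17 and 0.411% ± 0.0567 in WT at day 25. *Cox7b2* had 23.2% ± 2.17 of *Cox7b* in KO at day 11 against 1.3% ± 0.0421 in WT (SD, n = 2). *Slc25a31* reached 4.13% ± 0.0591 of *Slc25a4* in KO at day 25 and *Ldhc* 0.743% ± 0.0392 of *Ldha* in KO at day 11 (SD, n = 2). The somatic transcript therefore remained the larger one by RPKM in each of these 4 pairs. The exception was *Fmr1nb*, which is no paralog: it had 30.8% ± 2.85 of *Fmr1* in WT and 227% ± 5.68 in KO at day 9 (SD, n = 2). *Gapdh*, with 3.25 to 12.6 RPKM, comes from a gene with many copies, and its ratio to *Gapdhs* is not read.

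Reads of near-identical copies can blur such ratios. In a search of NCBIM37 with the longest transcript (matches of at least 100 bases and 95% identity outside the gene's own span), none of the 7 genes had a match. *Gapdh* had 52 that covered 88.6% of the transcript, *Pgk1* 4 (95.7%), *Rpl39* 5 (63.4%), *Cox7b* 1 (46.0%) and *Ldha* 3 (19.2%), and reads mapped with low confidence had been discarded, so the levels of these 5 somatic genes are uncertain. The coding sequence of *Rpl39l* was 85.3% identical to that of *Rpl39*, with 23 of 156 bases different. For the other pairs the identity of aligned coding bases was 79.3% (*Pgk2* and *Pgk1*), 74.3% (*Ldhc* and *Ldha*), 72.8% (*Gapdhs* and *Gapdh*), 70.0% (*Cox7b2* and *Cox7b*) and 67.9% (*Slc25a31* and *Slc25a4*).

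A list of 26 other testis paralogs of ubiquitous genes was examined beside the 7. Of these, 10 passed the filter, *Tktl2* only through KO libraries. Of the 9 that passed it in WT libraries too (day 6 left out), a count chosen after seeing the data, 3 rose by the mean of the 5 days and 6 did not pass, where 10.7% of the 11016 tested genes of that kind and 13.2% of all tested genes rose. Without replicate 3 of day 1 in both genotypes 4 of the 9 were higher and 1 lower, against 35.7% and 21.7% of such genes. *Rpl10l*, the retrocopy of the X-linked ribosomal protein gene *Rpl10*, rose by 1.05 (SE 0.136, limma adjusted p 3.86e-06) and had 5.03 and 5.42 RPKM in WT and 11.4 and 13.2 in KO at day 17. *Taf7l*, which encodes a germ cell form of a TFIID subunit, rose by 1.06 (SE 0.166, limma adjusted p 4.77e-05), and *Psma8*, the proteasome subunit of spermatocytes, by 1.08 (SE 0.209, limma adjusted p 5.465e-04). In each of these 3, every KO library was above every WT library on each of the 5 days, which held for 7.98% of tested genes. The median difference of the 9 was 0.05, against 0.04 over all genes that passed the filter in WT. *Tktl2*, a transketolase-like gene that had to differ to pass the filter, had 0.0327 and 0.199 RPKM in WT and 1.76 and 1.94 in KO at day 25, and is given without a test. *Rpl10l* is covered along its whole transcript by 1 match elsewhere at 97.46% identity, so its level is uncertain.

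The 24 somatic partners of that list had a median of -0.01, and 1 passed, *Prps1*, an enzyme of nucleotide synthesis, which fell by 0.52 (SE 0.1001, limma with Benjamini-Hochberg adjustment, adjusted p 5.235e-04). Among 17 somatic glycolysis genes, 16 were tested and 5 fell: *Pfkm*, a muscle-type phosphofructokinase (-0.83, SE 0.0908), *Aldoc*, an aldolase (-0.67, SE 0.128), *Pgk1*, *Pfkl*, the liver-type phosphofructokinase (-0.38, SE 0.0939), and *Gpi1*, glucose phosphate isomerase (-0.38, SE 0.0881), where 5.75% of tested genes fell. The count depends on the setting: 11 of the 16 were lower without replicate 3 of day 1 in both genotypes, where 20.7% of tested genes were, 9 after median centring (19.4%) and 2 with day 6 included as labelled (2.37%). The median of the 16 was -0.20. Of 5 subunit 7 genes of cytochrome c oxidase, 1 passed, *Cox7a1*, which rose by 0.46 (SE 0.126, limma adjusted p 0.0119), against 13.2% of tested genes; it was not called with day 6 included as labelled. Among testis cell markers, *Sycp1*, of the synaptonemal complex, rose by 0.82 (SE 0.179, limma adjusted p 0.00187), 1 of the 2 spermatocyte genes that passed the filter in WT, against 10.7% of such genes. The other, *Hspa2*, was not called, and the median difference of the 2 was 0.30. Without replicate 3 of day 1 in both genotypes 1 of the 2 was higher and 1 lower, against 35.7% and 21.7% of such genes. *Tex101*, a germ cell surface gene, passed the filter only through KO libraries and is given without a test, with a difference of 1.02. The summed level of 6 spermatocyte genes was 2.17 to 3.09 RPKM in WT and 3.32 to 6.30 in KO at days 11, 17 and 25. *Sycp1* alone had up to 4.93 RPKM in a library. *Clu*, the one of 4 Sertoli genes tested, rose by 0.83 (SE 0.0671, limma adjusted p 2.648e-09), against the same 10.7%.

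**Figure D4:**
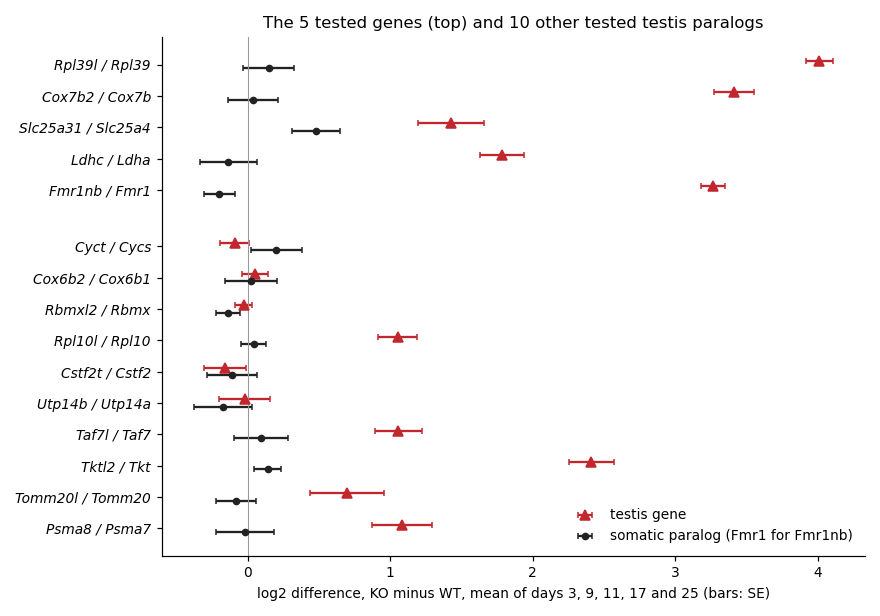
KO minus WT on the log2(RPKM + 0.1) scale, mean of days 3, 9, 11, 17 and 25 with standard error, for the 5 tested genes (top) and 10 other tested testis paralogs (red triangles), each with its somatic partner (black circles; *Fmr1* for *Fmr1nb*). The 5 lie between 1.43 and 4.01, *Psma8*, *Taf7l* and *Rpl10l* between 1.05 and 1.08, *Tktl2*, which passed the filter only through KO libraries, at 2.41, and the somatic partners shown between -0.20 and 0.48.

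The library labelled Dicer KO had *Dicer1*, the targeted gene, at 4.01 RPKM, within the 2.70 to 8.57 RPKM of the 17 libraries labelled WT, so its level does not check the label. In that library the genes were low: *Rpl39l* had 0.513 RPKM, *Cox7b2* 0.716, *Gapdhs* 0.0998, and *Ldhc* and *Fmr1nb* had no read. *Slc25a31* had 0.740 RPKM, above the 0.545 RPKM of the highest WT library. With a single library there is no replicate check, and its 10 fibroblast markers summed to 35.4 RPKM, above all other libraries.

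The genes whose log2 levels ran most alike were sought over 30 WT and KO libraries (all but day 6) and 11614 other tested genes, by Pearson's r, as a description, since libraries share a genotype, a day and a read share. *Rpl39l* and *Fmr1nb* were each other's nearest gene (r 0.96). For *Cox7b2* the nearest was *Rhox6*, a reproductive homeobox gene (r 0.96), and *Rpl39l* had rank 29 (r 0.90). For *Ldhc* it was *Usp26*, a ubiquitin protease gene of the X chromosome (r 0.91), and *Rpl39l* rank 4 (r 0.88). *Slc25a31* was closest to *Nxf3*, an X-linked RNA export factor gene (r 0.87), and among the other 4 genes of the set that were tested none came nearer than r 0.62, at rank 328.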

How the data were processed

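Total RNA libraries (Ribo-Zero, stranded, paired-end) of 35 samples were deposited by the authors as 1 table of RPKM values. Per the methods and the submitters' processing notes, reads were trimmed with Trim Galore 0.3.5, aligned to NCBIM37 with TopHat2 2.0.11, filtered on mapping quality and quantified in SeqMonk; the deposited RPKM are linear and relative to all reads of the library. Columns were assigned to samples by their names. The members and gene lists were chosen with earlier results of these data known. RPKM times GENCODE vM1 exon length gave whole reads (within 0.1) for 99.5 to 99.8% of low values, and 99.8% of rows had a length. KO and WT were compared with limma 3.58.1 (R 4.3.3; empirical Bayes with trend) on log2(RPKM + 0.1) over 34 libraries in 16 groups of genotype and day, for genes with RPKM above 1 in at least 2 libraries, with Benjamini-Hochberg adjustment at 0.05; the Dicer KO library was left out. The study's count test was not used because the values are not counts. The function was tested on simulated data. By the naming rule the members, their somatic relatives, the markers that passed and the listed genes that passed could be named, with up to 4 listed genes that did not; the plot of pairs shows the others too. Intervals of read ratios are exact and conditional, for counting error. The set of 20 and 15 libraries was split at a gene read share of 35%, chosen after seeing the values. Similar copies were sought with blastn 2.17.0, and coding sequences aligned with Biopython 1.88. Promoters came from RefSeq (GRCm38.p6), where all 14 genes matched. Alternatives were other pseudocounts, no filter, median centring, a replicate block, other library sets, limma-voom on recovered reads, leaving out each library, and, chosen after seeing the data, counting only genes that pass the filter in WT.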

Additional observations from a re-analysis of the deposited data

Results flagged for a closer look

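At day 6 the labelled KO minus WT difference had the opposite sign to that of days 3, 9, 11, 17 and 25, with every library of each day on the corresponding side, in 4 genes: -3.18 for *Rpl39l*, -4.39 for *Cox7b2*, -1.32 for *Ldhc* and -2.47 for *Fmr1nb* (log2 scale). The difference between days was not tested, and the share of tested genes with such a pattern was not taken. *Rpl39l* had 10.4 and 9.68 RPKM in the libraries labelled WT and 1.09 and 0.947 in those labelled KO, *Cox7b2* had 4.54 and 3.79 against 0.146 and 0.0660, and *Fmr1nb* had 5.75 and 5.80 against 1.09 and 0.840. *Dnmt1* had 3.22 and 3.405 RPKM in the first pair and 20.2 and 20.4 in the second.

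The Dicer KO library, which enters no comparison, had *Slc25a31* at 0.740 RPKM and *Pgk2* at 0.0731 RPKM (3 reads), each above every WT library. No replicate of it was analysed here.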

How the results depend on the processing

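*Rpl39l*, *Cox7b2*, *Fmr1nb*, *Ldhc* and *Slc25a31* kept their direction, KO above WT, in all alternatives run for the mean of days 3, 9, 11, 17 and 25, with ranges of 2.81 to 4.12, 2.11 to 3.63, 2.31 to 3.48, 0.56 to 2.69 and 0.65 to 1.77 (log2). The lowest of the first 3 came with day 6 included as labelled, and those of the other pair with a pseudocount of 1. Counts of genes called higher and lower, 1528 and 668 for the 5 days, 441 and 125 for days 3 and 9, and 1400 and 517 for days 11, 17 and 25, became 3186 and 1079, 827 and 231, and 2957 and 988 with no filter, which tests more genes (10 higher and 2 lower among the other testis paralogs). Without replicate 3 of day 1 in both genotypes they were 4385 and 2400, 2188 and 1472, and 4541 and 2136, and with only the groups compared 4049 and 2109, 2911 and 2273, and 3432 and 1326; the cause was not tested. In these fits 1 somatic gene was higher and 3 or 2 lower, 1 other testis paralog lower, and 1 glycolysis gene higher and 11 or 10 lower. Median centring gave 2248 lower, 707 and 678, and 1946 lower, with 1 somatic gene higher and 2 lower, 1 other testis paralog lower and 9 glycolysis genes lower, so the split of higher against lower calls depends on the scaling. Day 6 included as labelled gave 275 lower for all days, 5 and 0 for the early days at limma's threshold, 0 somatic genes lower and 2 glycolysis genes lower. *Cox7b* was at -0.039 under median centring, and between -0.024 (without KO day 11 replicate 1) and 0.0996 when each library was left out. *Pgk1* had an adjusted p of 0.0836 (limma, difference -0.26) with day 6, the highest of its alternatives, from 5.097e-06. Counting only genes that pass the filter in WT libraries, chosen after seeing the data, gave 287 higher for days 3 and 9.

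With the replicate number as a block, the counts were 4284 and 2374, 2022 and 1356, and 4403 and 2124, with 1 somatic gene higher and 3 lower, 1 other testis paralog lower, and 1 glycolysis gene higher and 11 lower. Limma adjusted p was then 1.88e-08 for *Slc25a4*, 7.18e-04 for *Fmr1* and 0.0204 for *Gapdh*. Deviations of same-numbered samples correlated at -0.16 to 0.09 at days 0, 3, 6, 9, 17 and 25, 0.26 at day 11 and 0.775 to 0.912 at day 1, where replicate 3 of both genotypes has another share of gene reads. As not every correlation is above 0.1, the number is not read as a pairing.

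Leaving out each library in turn gave 1329 to 2180 genes higher and 506 to 1016 lower, 300 to 674 and 56 to 244 for days 3 and 9, and 1144 to 2028 and 325 to 837 for days 11, 17 and 25, with the extremes on the high side without replicate 3 of day 1. It gave 0 to 1 somatic genes higher and 1 lower, 4 to 5 other testis paralogs (*Tktl2* among them) higher and 0 lower, and 0 glycolysis genes higher and 5 to 7 lower. With 2 libraries a group, the spread is estimated over all groups. Counts of a few reads limit *Ldhc*, *Gapdhs* and *Pgk2*, and *Slc25a31* at day 3. They also limit the WT level of *Cox7b2* at day 9 and that of *Fmr1nb* at day 25.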
